A study of Mus musculus with 36 samples.

Results

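This is a set of 10 surface molecules used to stage mouse B cell development, namely Kit, Spn, Bst1, Cd24a, Cd93, Ms4a1, Cd22, Cd72, Cd2 and Cd37, chosen by name and read from the mRNA-seq table by gene symbol. Of the 10, 6 have a row among the 12762 genes of the table: Spn, Cd24a, Cd93, Cd22, Cd72 and Cd37. Kit, the receptor for stem cell factor, Bst1, an ectoenzyme also called BP-3, Ms4a1, which encodes CD20, and Cd2, an adhesion receptor, have no row there by symbol or by identifier and were not analysed here. The material was the mouse pre-B cell line B3, transduced with MSCV retroviral vectors. The Ikaros cells carried HA-Ikaros-ERt2-IRES-GFP, in which the transcription factor Ikaros is fused to ERt2, the ligand-binding part of the estrogen receptor, and 4-hydroxy-tamoxifen (4-OHT) moves the fusion into the nucleus, and the control cells carried the vector with ERt2 and no Ikaros. Each line was collected at 0, 2, 6, 12, 18 and 24 h, with 3 libraries per group and 36 in all, from culture batches 1, 2 and 4 at 0 h and batches 1, 3 and 4 later. All libraries, 0 h included, are labelled with 0.5 uM 4-OHT, whereas the methods describe the 0 h cells as untreated and collected separately, so a comparison with 0 h is also one between collection occasions. Both lines keep the endogenous Ikaros gene, the fusion is driven by a retroviral vector, and all results concern a single cell line.

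B cell precursors are staged by the proteins on their surface. Progenitor and pro-B cells carry Kit and CD43, the product of Spn. CD24 and CD93 are carried by immature B lineage cells and recede on most mature B cells. CD22, CD72, CD20 and CD37 are carried by mature B cells and tune signalling by the B cell receptor. They are not all confined to later stages, as control pre-B cells at 0 h had Cd72 and Cd37 at the 76.0th and 98.3rd percentile of genes. Ikaros is a zinc finger factor that B cell precursors need to pass from the dividing large pre-B stage to the resting small pre-B stage. The values here are mRNA levels, and no surface protein was measured.

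Levels are given on the log2 scale of the authors' normalized table, which was shifted by a constant, so a level is relative and a difference between libraries is a log2 ratio. The table holds no counts, and the read totals and target depth that the study lists were not used here, so no counting error is attached to a value. Differences are Ikaros minus control with the standard error (SE) from limma fitted to all 36 libraries, and called means an adjusted p under 0.05 over all 12762 genes. As a check of the lines, the difference in Ikzf1, the Ikaros gene, lay between 5.19 and 6.26 at the 6 times, with no overlap of libraries. All 10 of 10 B cell marker genes had rows, with a summed level between 18.99 and 19.90 across the libraries of both lines. Of the markers of other cells, 1 of 10 for T cells (Cd5), 3 of 12 for myeloid cells, 4 of 8 for erythroid cells, 2 of 6 for natural killer cells, 1 of 5 for plasma cells (Irf4) and 0 of 6 for fibroblasts had rows. The summed myeloid level lay between 9.28 and 11.16 in control and between 10.10 and 11.73 in Ikaros libraries, and the erythroid level between 12.04 and 13.32 and between 9.31 and 14.46. The ranges in control and Ikaros libraries were 7.69 to 9.40 and 7.86 to 9.74 for the T cell gene, 6.12 to 8.51 and 5.51 to 9.69 for natural killer genes, and 7.64 to 10.06 and 3.83 to 9.15 for the plasma cell gene. Of the 4 erythroid genes, 2 were called lower in Ikaros cells at 0, 2 and 6 h, 0 were called at 12 h, and 1 was called higher at 18 and 24 h. Hbb-b2, a globin gene with a near-identical copy, went from -3.43 at 0 h to 1.82 at 24 h (limma, adjusted p 1.23e-07 and 8.51e-05), and Cd72 was likewise lower at 0 h and higher at 24 h. Of the 3 myeloid genes, Itgam went from -0.78 at 0 h (not called, adjusted p 0.487) to 4.24 at 24 h (1.39e-07) and Lyz2 from 2.94 to -2.94 (0.000627 and 4.96e-05). The defining T cell genes Cd3d, Cd3e and Cd3g and the monocyte gene Csf1r have no row in the table. These marker genes were named after their values were seen, and the part of other cell types in the results below was not tested.

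**Figure D1:**
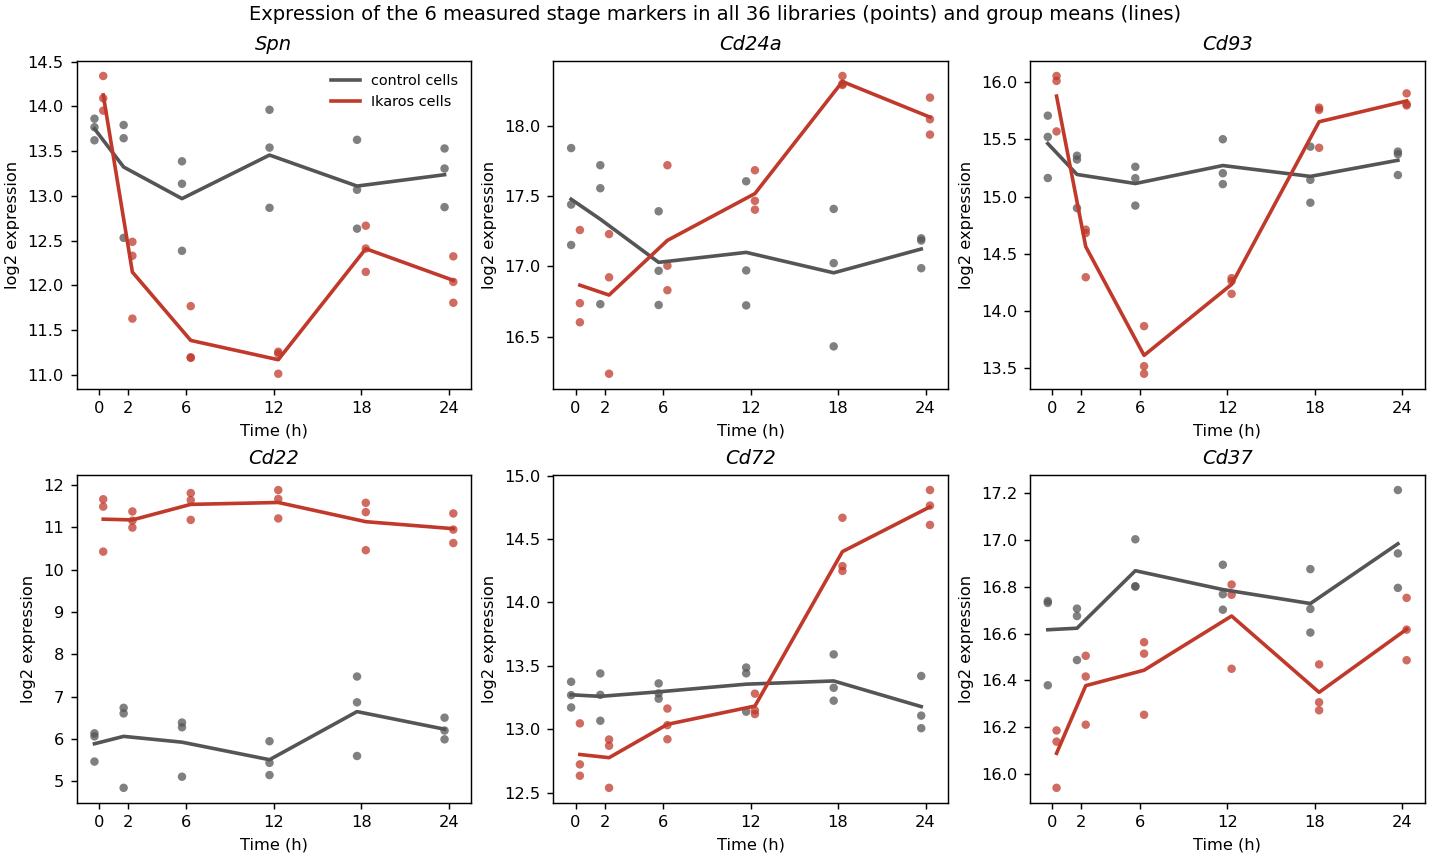
Log2 expression (y axis) against time in hours (x axis) for the 6 measured genes, each on its own scale. Points are libraries, lines join the means of 3 libraries, grey is control and red is Ikaros. Spn and Cd93 dip in Ikaros cells and Cd93 returns, Cd24a and Cd72 stand above control at 18 and 24 h, Cd22 is separate at all 6 times, and Cd37 stays slightly below control.

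The main comparison asks how the stage markers of the induced line differ from those of control cells over the day. At 0 h, Cd22 was higher and Cd72 and Cd37 were lower in Ikaros cells, which makes 3 of the 6 measured members called, against 8.33% of all genes. At 2 h, 4 were called (Spn, Cd93 and Cd72 lower, Cd22 higher), against 19.1% of all genes. Fits of only the 2 groups compared called Cd22 alone at each of these times, with adjusted p at 0 h of 0.0829 for Cd72 and 0.0644 for Cd37, and at 2 h of 0.152 for Spn, 0.122 for Cd93 and 0.163 for Cd72. Cd22 was also the 1 member called at 0 h without control replicate 2, and without Ikaros replicate 3 the count at 2 h was 2, Cd22 and Cd72. The share of all genes called in these smaller fits was not taken, so their counts have no background beside them. At 6 h, 4 were called (Spn, Cd93 and Cd37 lower, Cd22 higher), against 37.3%. At 12 h, 3 were called (Spn and Cd93 lower, Cd22 higher), against 45.8%. At 18 h all measured members other than Spn were called, 5 in number, against 58.2% of all genes. At 24 h all 6 were called, against 62.9%, with 4 higher (Cd24a, Cd93, Cd22 and Cd72, against 31.0% of genes called higher) and 2 lower (Spn and Cd37, against 31.9% called lower). With 6 genes the counts stand for those genes alone. In bulk libraries fewer cells of a type and less mRNA per cell cannot be told apart.

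Whether a difference itself changed over time was asked with an F test over the 5 changes from 0 h. Spn, Cd24a, Cd93 and Cd72 were called, 4 of 6 members against 59.8% of all genes, with adjusted p of 0.000424, 0.000701, 1.84e-08 and 8.43e-10 in that order. Cd22 and Cd37 were not called, at adjusted p 0.246 and 0.348. Without replicate 2 of every group, Spn and Cd24a were no longer called (adjusted p 0.105 and 0.102), and without replicate 1, Cd22 was called at 0.0427.

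**Figure D2:**
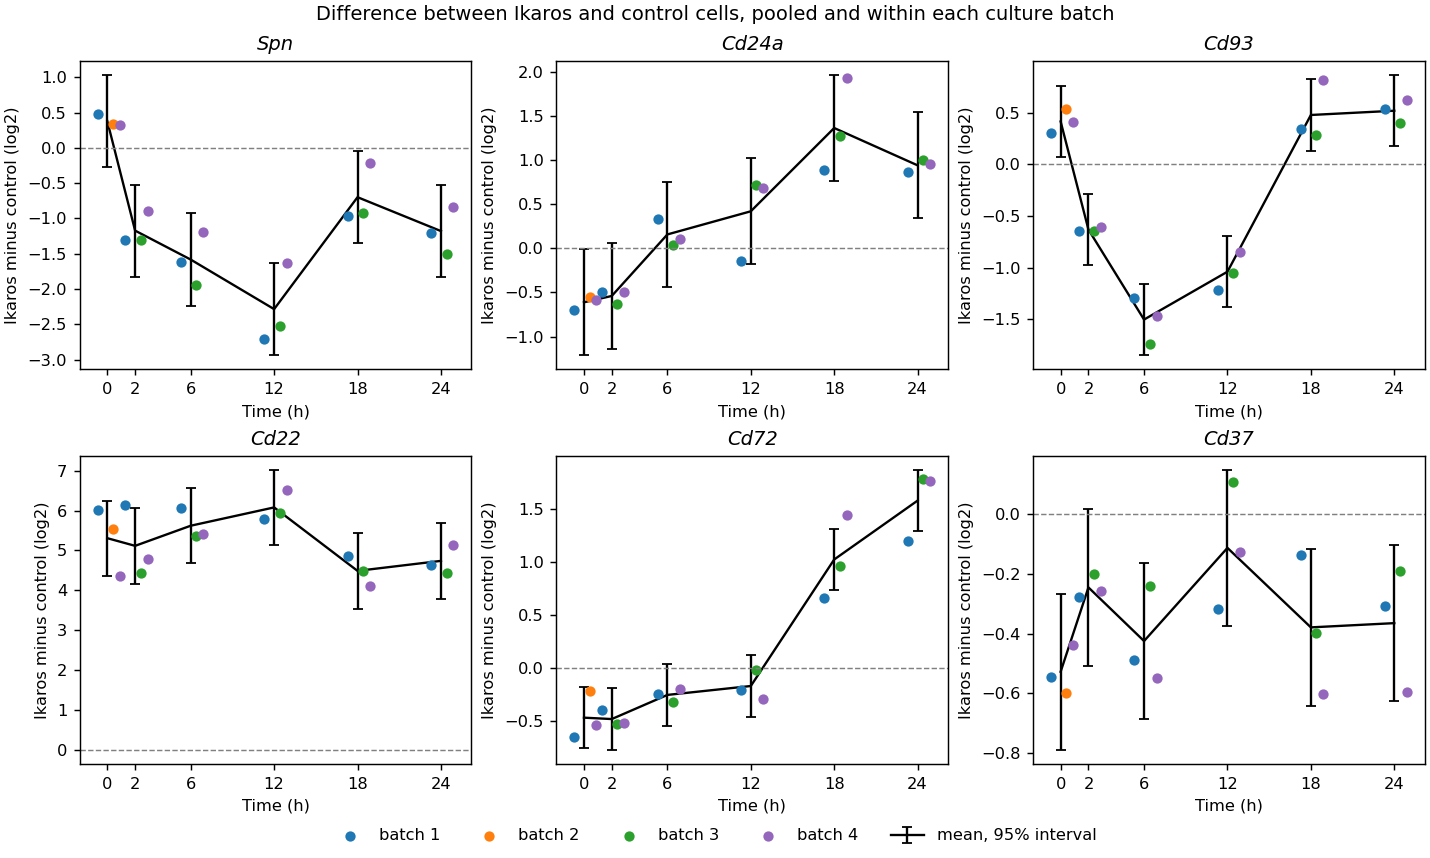
Ikaros minus control on the log2 scale (y axis) against time in hours (x axis) for each gene. The black line joins the fitted differences with their 95% intervals, and coloured points are differences between the 2 libraries of the same batch and time. The batch points lie on the same side of 0 as the line except for Cd24a and Cd37 at 12 h.

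Spn (ENSMUSG00000051457, GRCm38 chr7:127132232-127137823, reverse strand, protein coding) encodes CD43, a heavily glycosylated sialomucin of the leukocyte surface that pro-B cells carry and later precursors lose. It was the measured pro-B stage member, and it fell in Ikaros cells within 2 h and was at its lowest mean at 12 h. The Ikaros libraries read 14.34, 13.95 and 14.09 at 0 h, 12.49, 12.33 and 11.63 at 2 h, and 11.26, 11.01 and 11.24 at 12 h. The control libraries read 13.86, 13.62 and 13.77 at 0 h, 13.79, 13.64 and 12.53 at 2 h, and 13.96, 13.54 and 12.87 at 12 h. All Ikaros libraries lay below all control libraries at 2, 6, 12 and 24 h and above them at 0 h, while at 18 h the groups overlapped. Over all genes the share without overlap between the lines was 32.7, 27.9, 41.0, 51.0, 64.5 and 71.0% in the order of times.

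The difference in Spn was 0.38 at 0 h (adjusted p 0.596) and -1.17 at 2 h (SE 0.32, adjusted p 0.00959). It was -1.58 at 6 h (adjusted p 0.000298). At 12 h it reached -2.28 (1.34e-06), and control was 4.87-fold above Ikaros cells. The size at 12 h ranked 419th of 12762 genes. At 18 h the difference was -0.70 and was not called (adjusted p 0.0614), although it was called with batch entered as a replicate block (0.00745) and without control replicate 3, the batch 4 library (-0.94, 0.0246). At 24 h it was -1.18 (adjusted p 0.00217). The call at 2 h was lost without control replicate 1 (adjusted p 0.0760), control replicate 2 (0.0562) or Ikaros replicate 3 (0.0755). The control libraries of batch 4 were the lowest of their group at 2, 6, 12, 18 and 24 h, and within batches the difference at 12 h ran from -2.70 in batch 1 and -2.52 in batch 3 to -1.63 in batch 4.

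Within Ikaros cells, Spn changed by -1.98 from 0 to 2 h, -2.74 to 6 h and -2.96 to 12 h (adjusted p 7.12e-05, 1.83e-07 and 2.54e-08), in comparisons that called 19.2%, 32.8% and 46.1% of genes. It then rose by 1.24 between 12 and 18 h (adjusted p 0.00509, where 25.5% of genes were called), and at 24 h it was still 2.07 below 0 h on the log2 scale (adjusted p 2.91e-06), where 60.6% were called. Within control cells none of the 5 changes from 0 h was called, and the widest, -0.78 at 6 h, had an adjusted p of 0.115 where 5.10% of genes were called, the shares at 2, 12, 18 and 24 h being 0.0470, 0.0549, 0.478 and 0.470%. The change of the difference from 0 h was called at 6, 12 and 24 h (-1.96, -2.66 and -1.56) and not at 2 or 18 h (adjusted p 0.0578 and 0.0547), while over all genes 3.10, 15.9, 29.7, 43.0 and 48.4% were called from 2 to 24 h. From 2 h, which uses no 0 h library, the change to 24 h was -0.01 (95% interval -0.93 to 0.92) where 47.3% of genes were called.

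Cd93 and Cd24a encode surface glycoproteins of immature B lineage cells. Cd93 (ENSMUSG00000027435, GRCm38 chr2:148436640-148443563, reverse strand, protein coding), a C-type lectin-like membrane protein, was lower in Ikaros cells from 2 to 12 h and higher at 18 and 24 h. The Ikaros libraries read 16.01, 16.05 and 15.57 at 0 h, 13.87, 13.52 and 13.45 at 6 h, and 15.90, 15.80 and 15.81 at 24 h. The control libraries read 15.71, 15.52 and 15.16 at 0 h, 15.16, 15.26 and 14.92 at 6 h, and 15.37, 15.39 and 15.19 at 24 h. At 6 h every Ikaros library lay below every control library and at 24 h above, with overlap at 0 and 18 h.

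The difference in Cd93 was -0.63 at 2 h (SE 0.17, adjusted p 0.00833), -1.50 at 6 h (9.19e-08) and -1.04 at 12 h (1.20e-05). At 6 h control was 2.83-fold above Ikaros cells. The sign then turned, to 0.48 at 18 h (adjusted p 0.0168) and 0.52 at 24 h (0.00905), which is 1.43-fold above control. Cd93 was among the 213 genes, 1.67% of the table, called lower at 6 h and higher at 24 h. At 0 h the difference was 0.41 and not called (adjusted p 0.150), but it was called with the batch as a block (0.0241). The call at 2 h was lost without Ikaros replicate 3 (0.0664). The call at 18 h was lost without control replicate 3 (0.0997), Ikaros replicate 1 (0.0675) or Ikaros replicate 3 (0.0621).

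In Ikaros cells Cd93 changed by -1.32, -2.27 and -1.64 from 0 h to 2, 6 and 12 h (adjusted p 2.76e-06, 7.06e-11 and 9.87e-09). It rose by 0.62 from 6 to 12 h (adjusted p 0.0100, with 20.8% of genes called) and by 1.42 from 12 to 18 h (8.03e-07). At 24 h it stood -0.04 from its own 0 h (95% interval -0.39 to 0.30). In the order of levels in Ikaros cells, 0 h, 24 h and 18 h were not separated by the test, and neither were 2 h and 12 h (-0.33, adjusted p 0.124), while 6 h lay below both (from 2 h -0.95, 0.000461, with 11.2% of genes called). None of the control changes from 0 h was called, and the lowest adjusted p was 0.173. The change of the difference was called at 2, 6 and 12 h (-1.05, -1.92 and -1.45), whereas at 18 and 24 h it was 0.06 and 0.10 (95% intervals -0.42 to 0.55 and -0.38 to 0.59). Against 2 h the difference had changed by 1.15 at 24 h (adjusted p 0.000253).

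Cd24a (ENSMUSG00000047139, GRCm38 chr10:43578284-43584265, forward strand, protein coding) encodes CD24, the heat stable antigen, a small lipid-anchored glycoprotein. It was called higher in Ikaros cells at 18 and 24 h and was not called at the 4 earlier times. At 18 h the Ikaros libraries read 18.30, 18.29 and 18.36 and the control libraries 17.41, 17.02 and 16.43. At 24 h the values were 18.05, 18.20 and 17.94 against 17.18, 17.20 and 16.99. The groups were apart at 18 and 24 h and overlapped at 0, 2, 6 and 12 h, and control batch 4 was again the lowest of its group at 2, 6, 12, 18 and 24 h.

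The difference in Cd24a was -0.61 at 0 h and -0.54 at 2 h (SE 0.29, adjusted p 0.250 and 0.220). At 6 and 12 h it was 0.16 and 0.42 (adjusted p 0.707 and 0.251), and the 6 h value was -0.11 without Ikaros replicate 1. At 18 h it was 1.36 (adjusted p 0.000252), or 2.57-fold, and at 24 h 0.94 (adjusted p 0.00679), or 1.92-fold. Cd24a rose in Ikaros cells by 1.45 from 0 to 18 h (adjusted p 0.000141, with 54.6% of genes called) and by 0.80 from 12 to 18 h (0.0450). None of its control changes from 0 h was called, with the lowest adjusted p at 0.312. The difference changed by 1.97 from 0 to 18 h and by 1.55 from 0 to 24 h (adjusted p 0.000334 and 0.00280), and by 1.48 from 2 to 24 h (0.00443).

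Cd22 (ENSMUSG00000030577, GRCm38 chr7:30865402-30880342, reverse strand, protein coding) encodes a sialic acid-binding lectin that inhibits B cell receptor signalling. It was the member that separated the lines most, and did so at 0 h as well as later. The promoter windows of Cd22 and Spn are shown because they hold GGGAA, the core of the sites that Ikaros binds, and because these are the members with the largest differences above and below control. The windows are from RefSeq on GRCm38.p6, written 5′ to 3′ along the gene, with the GGGAA or its reverse complement TTCCC in capitals.
Cd22 chr7:30879157-30879185, reverse strand: ctgtgcaaggtatGGGAAaccttgggtgg
Cd22 chr7:30879132-30879160, reverse strand: gtgggtggaaGGGAAGGGAAgcgaaggga
Spn chr7:127138045-127138073, reverse strand: agcaagggaGGGAAaggaaacggttctcc
Spn chr7:127137954-127137982, reverse strand: gaaaacctaagaaTTCCCgtctggacccc
Spn chr7:127137824-127137852, reverse strand: agacccacttcctTTCCCcctggggctca
The matches in Cd22 began 144, 122 and 117 bases before the RefSeq start, which lies inside the gene span of the other annotation, and those in Spn 241, 146 and 16 bases before. Of the 4 members with an entry, the 300-base window held 3 matches in Spn, 3 in Cd22, 2 in Cd37 and 0 in Cd72, and 62.7% of 32851 windows held the letters on either strand. A match is a description of the sequence and no binding was measured here.

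In control cells Cd22 sat near the floor of the table, and in Ikaros cells near the middle. The control libraries read 5.47, 6.14 and 6.06 at 0 h and 5.99, 6.50 and 6.20 at 24 h. The Ikaros libraries read 11.49, 11.67 and 10.43 at 0 h and 10.63, 10.95 and 11.33 at 24 h. No Ikaros library overlapped a control library at any of the 6 times. The control means lay between the 2.94th and 7.85th percentile of the genes of the table and the Ikaros means between the 39.2nd and 48.4th, on a scale that the authors adjusted for gene length.

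The difference in Cd22 was 5.31, 5.12, 5.62, 6.08, 4.49 and 4.74 from 0 to 24 h (SE 0.46), with adjusted p between 3.68e-11 and 5.05e-09. Cd22 was among the 349 genes, 2.73% of the table, called at all 6 times. By size the difference ranked 8th, 6th, 8th, 6th, 71st and 74th of 12762 genes. The control values lie close to the bottom of the table, and without counts no counting error can be set on the size of the ratio. No change of the difference from 0 h was called, and the change to 24 h was -0.57 (95% interval -1.90 to 0.77). Within either line no change from 0 h was called, the lowest adjusted p being 0.429. Over the 12 group means Cd22 was most like Ikzf1 (r = 0.990) and Tnfaip8 (r = 0.963), a description in which the means fall into a control and an Ikaros cluster. Batch 1 gave within-batch differences of 6.03 at 0 h and 6.15 at 2 h, above the 4.37 and 4.77 of batch 4, but 5.78 at 12 h and 4.64 at 24 h, below the 6.53 and 5.13 of batch 4.

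Cd72 (ENSMUSG00000028459, GRCm38 chr4:43446462-43454628, reverse strand, protein coding) encodes a C-type lectin family co-receptor that also restrains B cell receptor signalling. It was slightly lower in Ikaros cells at 0 and 2 h and higher at 18 and 24 h. The Ikaros libraries read 12.72, 13.05 and 12.63 at 0 h, 13.28, 13.12 and 13.15 at 12 h, and 14.61, 14.89 and 14.76 at 24 h. The control libraries read 13.37, 13.27 and 13.17 at 0 h, 13.49, 13.14 and 13.44 at 12 h, and 13.42, 13.11 and 13.01 at 24 h. The groups overlapped at 12 h alone.

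The difference in Cd72 was -0.47 at 0 h and -0.48 at 2 h (SE 0.14, adjusted p 0.0352 and 0.0163). At 6 and 12 h it was -0.26 and -0.17, neither called (0.158 and 0.336). At 18 and 24 h it was 1.02 and 1.57 (7.04e-07 and 2.45e-10), the latter being 2.98-fold above control. Cd72 was among the 152 genes, 1.19% of the table, called lower at 0 h and higher at 24 h. The call at 0 h was lost without any of 5 libraries, namely control replicate 1, 2 or 3 (adjusted p 0.142, 0.0946 and 0.0544) and Ikaros replicate 1 or 3 (0.136 and 0.157). The call at 2 h was lost without control replicate 3 (0.0763) or Ikaros replicate 2 (0.108). Within Ikaros cells Cd72 rose by 0.38, 1.60 and 1.95 from 0 h to 12, 18 and 24 h (adjusted p 0.0288, 3.30e-10 and 4.18e-12), and the step from 12 to 18 h was 1.22 (6.33e-07). No control change from 0 h was called (lowest adjusted p 0.721). From 2 to 24 h the difference changed by 2.06 (95% interval 1.65 to 2.47, adjusted p 3.72e-09).

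Cd72 shares 1423 exonic bases, 41.6% of its own, with Tesk1, a protein kinase gene on the opposite strand. The libraries were strand-specific and the methods name an intersection option for the counting, but its strand setting is not given in the sources used here. Whether reads within the shared bases were assigned to a gene or set aside is therefore not known here, and their part in the Cd72 values was not tested. The difference in Tesk1 was 0.21, 0.42, 0.90, 0.59, 1.17 and 1.39 in the order of times, with adjusted p 0.341, 0.00964, 6.95e-07, 0.000123, 1.40e-09 and 3.84e-11. At 2 h Tesk1 was therefore higher and Cd72 lower in Ikaros cells, while at 18 and 24 h both were higher. Cd22 overlaps an antisense gene without a row, Gm29439, over 479 exonic bases (9.50% of its own), and Cd37 overlaps Tead2 over 13 bases. Tesk1 was looked at after its values were seen.

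Cd37 (ENSMUSG00000030798, GRCm38 chr7:45233632-45239115, reverse strand, protein coding) encodes a tetraspanin of B lineage cells that organizes other membrane proteins. It was slightly lower in Ikaros cells, by less than 0.6 on the log2 scale at all 6 times. The Ikaros libraries read 16.19, 16.14 and 15.94 at 0 h and 16.49, 16.75 and 16.62 at 24 h. The control libraries read 16.73, 16.74 and 16.38 at 0 h and 16.80, 16.94 and 17.21 at 24 h. The groups overlapped at 2 and 12 h.

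The difference in Cd37 was called at 0, 6, 18 and 24 h (-0.53, -0.43, -0.38 and -0.37, SE 0.13, adjusted p 0.00731, 0.0103, 0.0126 and 0.0148) and not at 2 or 12 h (-0.25 and -0.11, 0.198 and 0.494). Single libraries decided each of these calls. The 0 h call was lost without control replicate 2 (0.0532) and the 6 h call without control replicate 1 or Ikaros replicate 3 (0.0554 and 0.0666). The 18 h call was lost without control replicate 3 (0.0702), and the 24 h call without control replicate 3 or Ikaros replicate 1 (0.117 and 0.0750). Cd37 rose in Ikaros cells by 0.53 from 0 to 24 h (adjusted p 0.000791), and in control cells the same change was 0.37 and not called (0.238). The change of the difference from 0 to 24 h was 0.16 (95% interval -0.21 to 0.53).

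The members were compared with each other over the 12 group means, as a description with shared libraries. Cd24a and Cd72 had r = 0.877 and Spn and Cd93 r = 0.699. Cd22 had r = -0.644 with Spn and r = -0.706 with Cd37. Among 6366 genes with means at or above the median of the table, the most like were Pip4k2a (r = 0.986) and Med22 (0.977) for Spn, Tfdp2 (0.968) and Cog3 (0.963) for Cd24a, and Lrrk2 (0.947) and Sfxn3 (0.937) for Cd93. For Cd72 they were Rbm45 (0.972) and Nlrc5 (0.969), and for Cd37 Naa60 (0.889). An r above 0.9 was reached by 116 genes for Cd24a, 75 for Cd72, 55 for Cd22, 54 for Spn, 12 for Cd93 and 0 for Cd37.

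**Figure D3:**
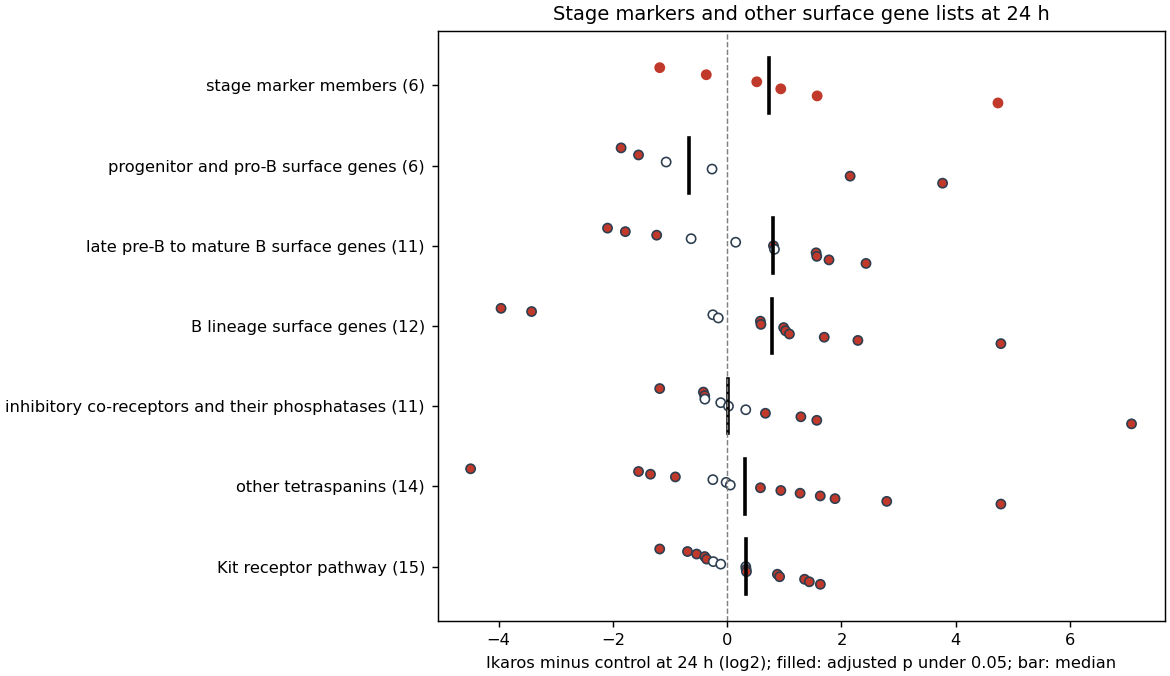
Ikaros minus control at 24 h on the log2 scale (x axis) for each gene of the measured stage markers and of 6 other lists of surface and signalling genes (y axis, genes with a row in brackets). Filled points were called, open points were not, and bars are medians. All 6 stage markers were called, and each list holds genes on both sides of 0.

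Other genes of the same stages and pathways were read at 24 h, where the median difference over all genes was -0.01 and 62.9% were called. Of the progenitor and pro-B surface genes 6 of 8 had a row, 2 were called higher and 2 lower, and the median was -0.67. Ly6d, a lymphoid progenitor antigen, and Il7r, the interleukin-7 receptor chain, were above control by 3.77 and 2.15 (adjusted p 0.000186 and 1.03e-11), and Cd44, a hyaluronan receptor, was at -1.86 (1.30e-10). Of these, Cd44 was like Spn in being lower at 24 h, whereas Ly6d and Il7r were higher. Unlike Spn, Cd44 was called lower at 0 h already (-0.63, 0.0109), and Il7r was called lower at 2 and 6 h (-0.54 and -0.85). Ly6d had a low control mean of 7.74 at 24 h. Cd9, the other gene called lower at 24 h, was at -1.55 (0.0361).

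Of the late pre-B to mature B surface genes 11 of 22 had a row, and 5 were called higher and 3 lower with a median of 0.81. Il2ra, which encodes the CD25 chain that small pre-B cells display, went from -2.40 at 0 h (adjusted p 1.33e-07) to 2.43 at 24 h (4.00e-09), a turn of sign that Cd72 showed at a smaller size. Cd38, an ectoenzyme related to Bst1, was at 1.78 (SE 0.70, 0.0282). Its control mean at 24 h was low, at 6.61, and it was not called at any earlier time. Cr2, the complement receptor CD21 of mature B cells, was at -2.09 (1.27e-13). Later stage genes thus lay on both sides of control.

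Among the B lineage surface genes all 12 had a row, and 8 were called higher and 2 lower with a median of 0.79. The 2 lower genes were Igll1 and Vpreb1, the surrogate light chain of the large pre-B stage, at -3.96 and -3.42 (adjusted p 1.95e-15 and 4.80e-12). Cd53, a tetraspanin like Cd37, was at 4.79 (1.01e-15), and it was called higher at 0 h already, at 1.28 (0.000346). Of the other tetraspanins 14 of 20 had a row, with 7 higher, 4 lower and a median of 0.32, including Tspan17 at 2.79 and Tspan4 at -4.49 (1.58e-11 and 2.07e-16). At 24 h the control mean of Tspan17 was 7.46 and the Ikaros mean of Tspan4 was 7.72.

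Of the list of other inhibitory co-receptors and of signalling proteins such as phosphatases, 11 of 15 had a row, with 4 higher, 3 lower and a median of 0.02. Fcgr2b, the inhibitory Fc receptor, was at 7.08 (adjusted p 3.30e-16), from 2.08 at 0 h (4.55e-05), so like Cd22 it was higher at 0 h already, and its control mean at 24 h was 7.22. Lyn, the kinase that phosphorylates such receptors, and Pecam1, an inhibitory adhesion molecule, were at 1.57 and 1.29 (2.01e-08 and 7.35e-06). The Kit receptor pathway list holds the ligand gene Kitl, which has no row, and genes that act below Kit. It shares Grb2, Shc1, Ptpn6 and Ptpn11 with the list before. Of its genes 15 of 17 had a row, with 7 higher, 5 lower and a median of 0.33. The largest were the adaptor Gab2 (1.63), the phosphoinositide kinase subunit Pik3r1 (1.44) and the signalling suppressor Socs1 (1.35), with adjusted p 4.66e-07, 1.10e-05 and 1.15e-05. Socs1 was called lower at 0 h (-0.96, 0.00688). Kit itself has no row.

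**Figure D4:**
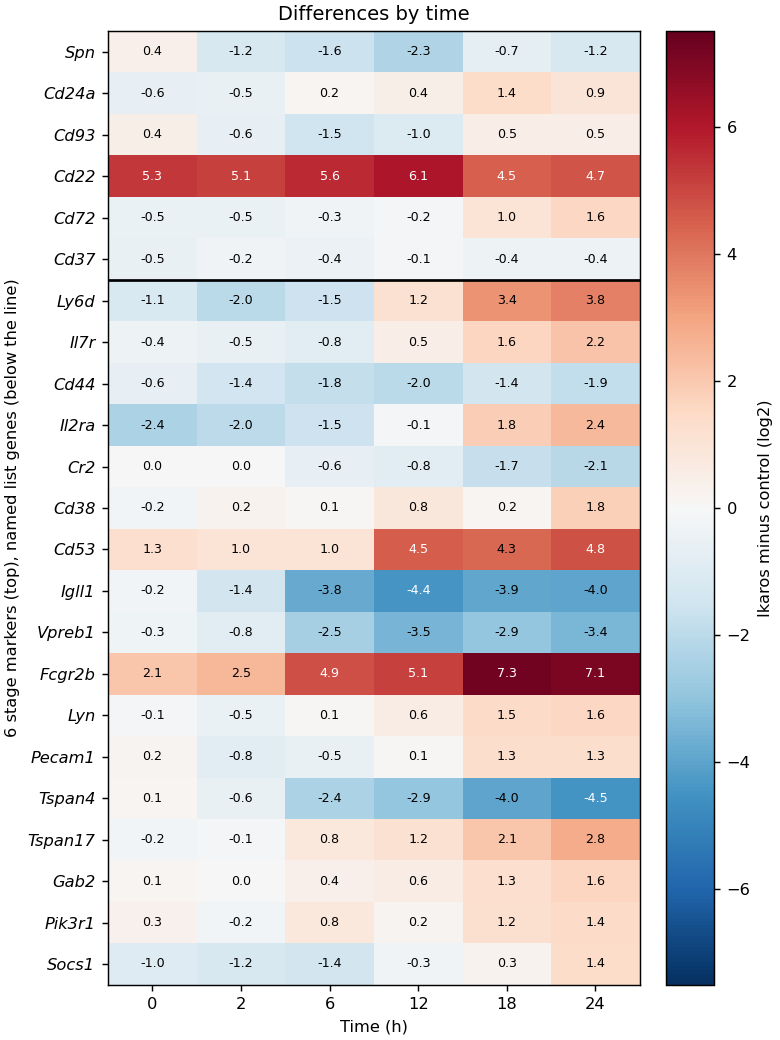
Ikaros minus control on the log2 scale (colour and printed value) by time in hours (columns) for the 6 measured stage markers above the line and the named list genes below it. Red is higher in Ikaros cells and blue lower. Cd22 is red at all 6 times and Spn is blue from 2 h on. Several genes pass from blue to red between 0 and 24 h, among them Cd24a, Cd72, Il2ra, Il7r, Ly6d and Socs1. Of those named, Cd24a, Il7r and Ly6d were not called at 0 h.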

How the data were processed

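Groups came from the labels, which give line, time and culture batch. Per the labels and methods, the authors aligned reads to mm10 with TopHat2, counted genes with HTSeq, normalized for GC content and length with cqn, and adjusted library preparation with ComBat. The deposited values are on a log2 scale and their lowest value is 1. Because batch adjustment came before deposition, the SE may be too small. The table holds no counts, and the read totals that the study lists were not used here, so depth per value is unknown and precision was taken from the spread of the 3 libraries per group.

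One limma model (limma 3.58.1, R 4.3.3) with 12 group means was fitted to all 36 libraries and 12762 genes. P-values are two-sided, with Benjamini-Hochberg adjustment over the whole table. Figures were drawn with matplotlib 3.10.9. The script was tested on simulated data. The members and gene lists were chosen with earlier results of these data known. Named genes were the members, Ikzf1, the 3 largest called and non-overlapping differences at 24 h in each list, and the 2 genes most like each member, of which 1 is not reported here. Comparisons of 12 with 6, 18 with 12 and 24 with 18 h within a line, and the fits without replicate 3 of every group, were chosen after the values were seen. Positions and overlaps are from GENCODE mouse release 21 (GRCm38), where 98.7% of genes were found. Promoters of 4 members are from RefSeq. At most 0.384% of values were identical between any 2 libraries.

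The labels give the control and Ikaros cultures of a batch the same number, which pairs them. Across genes, the deviations from the group mean had r between -0.0620 and 0.507 over the 18 pairs (median 0.127, 12 pairs over 0.1). Alternatives were the batch as a replicate block, a filter at the 25th percentile of mean expression, quantile scaling, other eBayes settings, fits restricted to the groups compared, and fits leaving out single libraries.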

Additional observations from a re-analysis of the deposited data

Results flagged for a closer look

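For 4 of the 6 measured members the Ikaros-control difference was not the same at all times, by the F test over the 5 changes from 0 h (adjusted p over all genes). Spn was at 0.000424, with the difference going from 0.38 at 0 h to -2.28 at 12 h. Cd24a was at 0.000701, going from -0.61 at 0 h to 1.36 at 18 h. Cd93 was at 1.84e-08, going from 0.41 at 0 h to -1.50 at 6 h and 0.52 at 24 h, and its change from 0 to 24 h was not called. Cd72 was at 8.43e-10, going from -0.48 at 2 h to 1.57 at 24 h. Over all genes the same test called 59.8%. A formal outlier test within groups was not run on groups of 3 libraries.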

How the results depend on the processing

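Of 151 counts recomputed under the alternatives, 145 stayed within 1.5 times of the reported count and 6 moved. In fits of only the 2 compared groups, 1 member was called at 0 h and 1 at 2 h. The filter left 2 of the progenitor and pro-B genes called at 24 h in place of 4, and it removed Cd22, which has no value there. Leaving out single libraries gave 1 to 3 members called at 0 h, with 1 without control replicate 2, and 2 to 4 at 2 h, with 2 without Ikaros replicate 3. The F test called 2 to 5 members without a replicate of every group, with 2 without replicate 2. Of 467 gene values, 426 kept direction and side of the threshold, 35 lost the call, 5 gained it and 1 changed sign, namely Cd24a at 6 h, which was -0.11 without Ikaros replicate 1 and at most 0.34 without another single library. Apart from those fits, the causes of these changes were not tested. The share of all genes called under each alternative was not taken, so a changed count is not a result about the members.

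With batch entered as a replicate block, 4, 4, 4, 3, 6 and 6 members were called from 0 to 24 h, and the share of all genes called with the block was not taken. The block added Cd93 at 0 h and Spn at 18 h and changed no other member call. Quantile scaling moved the median of all genes by less than 0.02. Read depth was not used here, and the SE of the difference was largest for Cd22 among the members, at 0.46.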

Other observations

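Genes within 50000 bases of a member were read after the values of the members were seen. Thbd, which encodes thrombomodulin, a membrane protein of the same C-type lectin-like family as Cd93, lies 28452 bases from it. In Ikaros cells its mean ± SD (n = 3) was 12.85 ± 0.21 at 0 h. The means at 2, 6 and 12 h were 9.92 ± 0.35, 9.99 ± 0.10 and 10.64 ± 0.24, and those at 18 and 24 h were 12.70 ± 0.34 and 12.68 ± 0.13. In control cells the means lay between 12.13 and 13.01. Ikaros minus control for Thbd gave -2.84, -2.43 and -1.97 at 2, 6 and 12 h (limma, SE 0.20, adjusted p 7.61e-11, 5.24e-10 and 8.61e-09), then 0.57 at 18 h (0.0174) and 0.23 at 24 h (0.339). Thbd was thus lower at 2, 6 and 12 h as Cd93 was, and the group means of the pair had r = 0.893 over 12 groups, a description in which the pair shares libraries. At 24 h, when Cd93 was called higher, Thbd was not called.

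The other members had between 0 and 6 genes with a row in that window. Of the 6 near Cd72, Tesk1 included, 4 were called at 24 h, when 62.9% of all genes were called. Spn had 2 and Cd37 had 2, all called at 24 h, and Cd24a had 1, also called, and these few genes are not set apart from that share. Cd22 had 0. Irf4, the only plasma cell marker with a row and a factor that pre-B cells also use, had a difference of -5.02 at 2 h (adjusted p 2.93e-10) and 0.11 at 24 h (0.824), and was picked after its values were seen.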
